A study of Mus musculus with 18 samples.

Results

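The comparison described here set sorted pancreatic alpha cells against sorted beta cells, both untreated. It used the RSEM expected counts of 3 alpha control and 3 beta control libraries, chosen by their labels (cell type and control treatment), of 18 libraries in all. The other 12 hold control delta cells and alpha, beta and delta cells treated with 5 ng/mL IFNγ. Islets came from male C57BL/6 mice 12 weeks old, with no transgene, and control islets were cultured for 20 h without IFNγ before they were dispersed and sorted. Live Epcam+ cells without blood or endothelial markers and with low surface CD24 were split into CD71- cells, enriched for alpha cells, and CD71+ cells, enriched for beta cells. Each library was made from 5 ng of total RNA. The methods call each replicate of the study's graphs an independent biological sample, but the labels name no mouse or islet preparation. The p-values measure the spread between libraries of a group, estimated over all 18 libraries. A level is given in CPM, which is the count scaled to a common library total by TMM, with the 3 libraries of a group in replicate order. Fold changes are alpha minus beta on a log2 scale. Tests are those of edgeR (quasi-likelihood F), and p-values were adjusted over all genes tested by the Benjamini-Hochberg method.

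Alpha cells secrete glucagon, which raises blood glucose by driving glucose output from the liver, and they are active when glucose is low. Beta cells secrete insulin in response to glucose, which they sense by taking it up and oxidising it until K-ATP channels close and calcium enters. Both arise from the same endocrine progenitors, and each keeps its identity through a small set of transcription factors, among them Pdx1, Nkx6-1 and Mafa on the beta side.

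The libraries carried the RNA that their labels named. Glucagon (Gcg) stood at 117457, 88865 and 78063 CPM in alpha libraries, against 1144, 2977 and 154 CPM in beta libraries (log2 fold change 6.06 ± 1.32 (SE), adjusted p = 0.00284). Irx1, an Iroquois homeobox factor of alpha cells, stood at 109, 116 and 85.3 CPM in alpha libraries, against 0.855, 3.51 and 0 CPM in beta libraries (log2 fold change 6.04 ± 0.59 (SE), adjusted p = 1.11e-06). On the beta side, the peptide urocortin 3 (Ucn3) was at 4.07, 25.7 and 4.60 CPM in alpha and 175, 203 and 240.2 CPM in beta libraries (log2 fold change -4.17 ± 0.56 (SE), adjusted p = 2.83e-05). The glucose transporter GLUT2 (Slc2a2) was at 5.52, 18.1 and 2.56 CPM in alpha and 149.9, 210.2 and 625 CPM in beta libraries (log2 fold change -5.24 ± 0.81 (SE), adjusted p = 0.000131). None of the 4 overlapped between the groups, which was also so for 40.4% of all genes tested. Traces of the other type were uneven. Summed over the beta identity list, alpha control 2 held 20.7% of the mean of the beta libraries, against 6.32% and 3.80% in alpha controls 1 and 3. Summed over the alpha identity list, the beta libraries held 2.31, 4.32 and 1.68% of the alpha mean. Fitted folds moved with these traces. Without alpha control 2, Ins2, Ucn3 and Slc2a2 were at -4.58, -5.57 and -6.37, and without beta control 2, Gcg was at 7.19 on the same log2 scale. In bulk samples such as these, fewer cells of a type and less RNA per cell cannot be told apart.

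Other facts of the libraries bear on the values below. The 6 libraries held 6584279 to 8865201 counts each, which limits what can be said of genes under about 1 CPM. Ribosomal RNA took 25.1, 27.2 and 11.48% of counts in alpha and 27.2, 15.9 and 5.28% in beta libraries. Beta control 1 carried acinar RNA. The acinar list, digestive enzymes of the exocrine pancreas, summed to 71.6, 18.7 and 27.1 CPM in alpha and 2791, 129 and 3.04 CPM in beta libraries. The deposited table of beta control 3 is the only one of the 6 whose name carries a papain mark in place of the CD71 gate. That library also had the lowest share of ribosomal RNA of the 6 and the highest level of Slc2a2. By the dates in those names, alpha and beta controls 1 share a date, alpha and beta controls 2 share another, and alpha control 3 and beta control 3 have dates of their own.

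**Figure D1:**
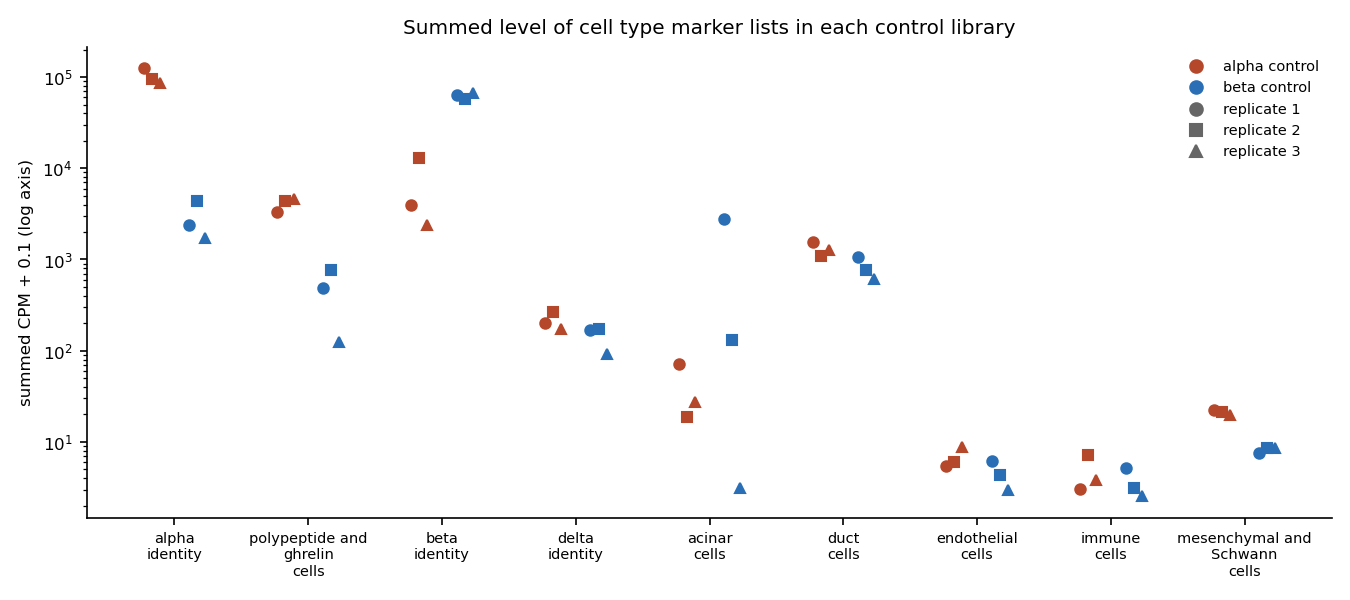
Summed CPM of the genes of each marker list (log axis, 0.1 added) in the 3 alpha control libraries (left of each pair) and the 3 beta control libraries (right), with circles, squares and triangles for replicates 1, 2 and 3. The acinar list spans 3.04 to 2791 CPM among the beta libraries, and the beta identity list reaches 12870 CPM in alpha control 2, against 3938 and 2367 CPM in alpha controls 1 and 3.

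Of 17338 genes tested, 1659 were higher in alpha cells and 1755 were lower at an adjusted p under 0.05, which is 9.57% and 10.1% of the genes and 19.7% in either direction. The counts called in each gene list below stand beside these shares. Among the called genes, the median change was 1.79 for those higher and -1.34 for those lower, and the median over all genes was 0.04. A change of more than 4-fold was fitted for 744 of the genes higher and 549 of those lower. Against a null of 2-fold, edgeR's glmTreat called 619 higher (3.57%) and 465 lower (2.68%). The 3 alpha and 3 beta values did not overlap for 1634 of the 1659 and 1713 of the 1755, against 40.4% of all genes tested. The kit keeps strand, but the sources used here do not say whether the counting used it, so genes that overlap another, among them Gnas, Iapp, Pdx1 and Slc2a2, could hold reads of their neighbour. Leaving out a library in turn kept 937 of the higher and 963 of the lower calls through all 6 fits. Within the 2 dates that hold both types, the genes higher had median log2 ratios of 1.43 and 1.22, and the genes lower -1.24 and -0.995. The libraries of these dates also gave the calls, so these ratios describe the called genes and are not a separate test.

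**Figure D2:**
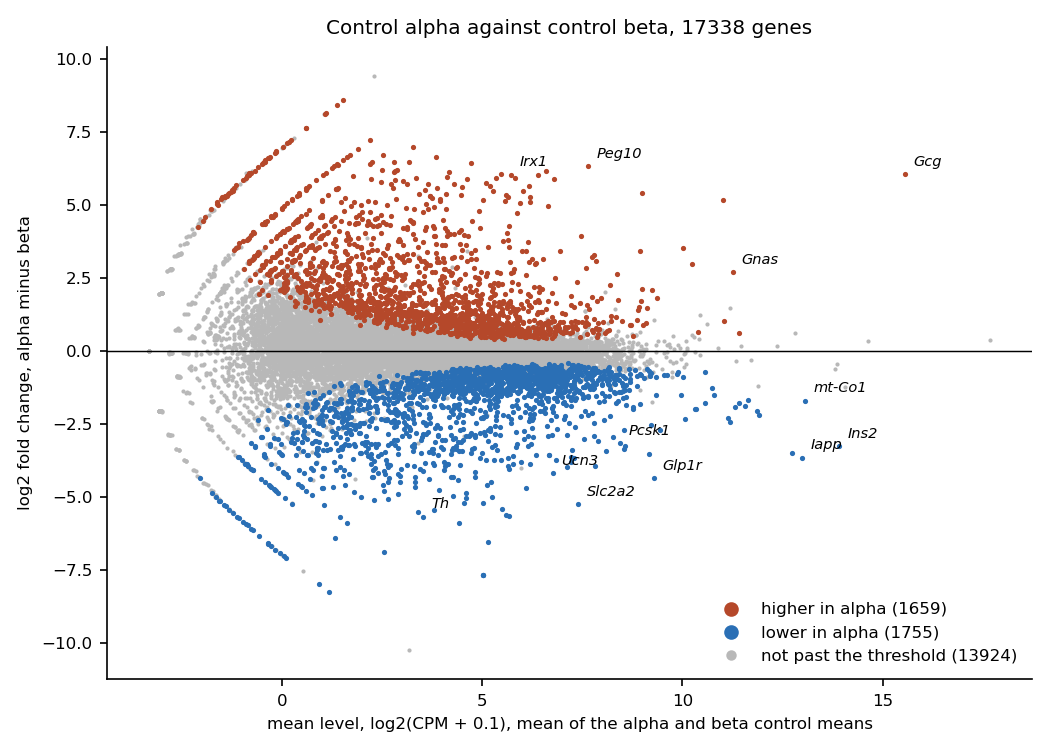
Log2 fold change of alpha minus beta control against the mean level of each of the 17338 genes tested, as log2 of CPM plus 0.1, with genes higher in alpha in red (1659), lower in blue (1755) and the other 13924 in grey. Gcg lies at 6.06 at the highest level of any gene called higher, and Ins2 and Iapp at -3.25 and -3.65, while straight lines of points at the left edge come from genes with few or no counts in a group.

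The cell type difference was also measured between the 6 IFNγ libraries. These are outside the control contrast, but they entered the same fit, so both contrasts share its estimate of the spread, and some of them share dates with control libraries. Of the 1659 genes higher in control alpha cells, 1129 were also called higher in IFNγ alpha than in IFNγ beta cells, which is 68.1% of the control calls and 47.1% of the 2397 IFNγ calls (13.8% of genes tested). Of the 1755 lower, 1168 were called lower there too, 66.6% of the control calls and 50.8% of the 2300 IFNγ calls (13.3%). The difference between the contrasts, tested in the same edgeR fit, passed an adjusted p of 0.05 for 0 genes, and an unadjusted p under 0.05 for 2306 (13.3%).

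Transcription factors of the alpha lineage were higher in alpha cells without exception among those tested. All 7 tested members of the list were called higher, with a median log2 fold change of 5.39. Irx2, the neighbour of Irx1 on chromosome 13, was at 135, 132 and 159.9 CPM in alpha and 3.85, 5.27 and 1.52 CPM in beta libraries (log2 fold change 5.29 ± 0.36 (SE), adjusted p = 3.06e-08). The beta libraries held Irx1 and Irx2 at a few CPM or none, and beta control 2 had the highest beta value of each. The POU factor Pou3f4 (Brn4) was at 23.8, 13.6 and 24.8 CPM in alpha and 0.285, 1.05 and 0 CPM in beta libraries (log2 fold change 5.39 ± 0.76 (SE), adjusted p = 4.74e-05).

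Beta lineage factors went the other way, with 6 of 7 tested members lower in alpha cells and a median of -2.23. Mafa, an activator of the insulin genes that marks mature beta cells, was at 9.88, 43.4 and 6.95 CPM in alpha and 157, 182 and 489 CPM in beta libraries (log2 fold change -3.78 ± 0.75 (SE), adjusted p = 0.00123). Pdx1, needed for the pancreas and for insulin transcription, was at 8.43, 21.8 and 2.24 CPM in alpha and 96.3, 97.4 and 119.9 CPM in beta libraries (log2 fold change -3.28 ± 0.49 (SE), adjusted p = 8.19e-05). Alpha control 2 had the highest alpha value of each. Nkx6-1, which represses the alpha programme in beta cells, was at 49.99, 97.6 and 37.7 CPM in alpha and 211, 232 and 427 CPM in beta libraries (log2 fold change -2.23 ± 0.33 (SE), adjusted p = 7.47e-05), and no alpha library was under 37 CPM. Mnx1 and Glis3 were also lower (-3.46 and -1.31). Neurog3, the factor of endocrine progenitors, was the member not called (-0.72, adjusted p = 0.622).

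Among factors that the islet endocrine cells share, 1 of 17 was higher (2 without beta control 1), 3 were lower and 13 did not pass, beside 9.57% called higher and 10.1% called lower over all genes, and the median was -0.06. Pax6, required for all islet hormones, was at 372, 320.5 and 319 CPM in alpha and 341, 372 and 414 CPM in beta libraries (log2 fold change -0.16, 95% interval -0.49 to 0.17). Nkx2-2 had an interval of -0.31 to 0.63 and Neurod1 of -0.60 to 0.40. The largest fall was that of Mlxipl (ChREBP), which turns on glycolytic and lipogenic genes when glucose is high, at 16.9, 33.1 and 18.4 CPM in alpha and 317, 247 and 304 CPM in beta libraries (log2 fold change -3.67 ± 0.38 (SE), adjusted p = 1.84e-06).

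Hormone genes ranked highest among nuclear protein-coding genes in both types. Measured per transcript length, in TPM, Gcg was at 65697 ± 8725 TPM in alpha libraries, against 853 ± 924 TPM in beta libraries (SD, n = 3 each), and it ranked highest of all nuclear protein-coding genes in alpha cells. Ins2 ranked highest in beta cells, at 5248 ± 5285 TPM in alpha libraries, against 47911 ± 6957 TPM in beta libraries. It also ranked next after Gcg in alpha cells, and its alpha mean rested largely on alpha control 2. In CPM, Ins2 was at 1728, 6502 and 633 CPM in alpha and 29885, 25346 and 29249 CPM in beta libraries (log2 fold change -3.25 ± 0.80 (SE), adjusted p = 0.00653) and Ins1 at 574, 2397 and 359 CPM in alpha and 14925, 10734 and 12154 CPM in beta libraries (log2 fold change -3.51 ± 0.79 (SE), adjusted p = 0.00355). Ins1 and Ins2 are near copies of each other, so their reads could be split between them in counting. Amylin (Iapp), packed in the same granules as insulin, was at 700.0, 2401 and 514 CPM in alpha and 13359, 15949 and 15915 CPM in beta libraries (log2 fold change -3.65 ± 0.58 (SE), adjusted p = 0.000181). Of 11 hormone and peptide genes tested, 4 were higher in alpha cells and 5 lower.

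The promoters of the hormone and marker genes with an entry in the RefSeq table of GRCm38.p6 are shown because these genes define the types. Each is the stretch of 250 bases before the transcription start, and capitals mark the E-box letters CAGATG or their reverse complement CATCTG, a core bound by basic helix-loop-helix factors such as NeuroD1.
Gcg (chr2:62483654-62483903, minus strand): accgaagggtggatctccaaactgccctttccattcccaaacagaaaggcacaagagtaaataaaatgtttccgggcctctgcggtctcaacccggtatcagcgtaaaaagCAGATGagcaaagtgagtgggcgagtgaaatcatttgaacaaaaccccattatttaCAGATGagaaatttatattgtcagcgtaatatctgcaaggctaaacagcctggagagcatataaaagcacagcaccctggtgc
Ins1 (chr19:52264047-52264296, plus strand): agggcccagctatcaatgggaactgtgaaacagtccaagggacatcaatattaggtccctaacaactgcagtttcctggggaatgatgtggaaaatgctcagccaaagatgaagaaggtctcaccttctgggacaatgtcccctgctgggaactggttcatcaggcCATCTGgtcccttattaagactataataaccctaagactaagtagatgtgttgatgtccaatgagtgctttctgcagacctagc
Ucn3 (chr13:3945350-3945599, minus strand): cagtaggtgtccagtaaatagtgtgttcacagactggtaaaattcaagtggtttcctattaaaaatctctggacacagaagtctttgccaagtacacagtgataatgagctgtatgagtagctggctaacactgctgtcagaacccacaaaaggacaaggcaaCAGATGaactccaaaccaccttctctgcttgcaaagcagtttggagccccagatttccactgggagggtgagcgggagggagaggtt
Slc2a2 (chr3:28697653-28697902, plus strand): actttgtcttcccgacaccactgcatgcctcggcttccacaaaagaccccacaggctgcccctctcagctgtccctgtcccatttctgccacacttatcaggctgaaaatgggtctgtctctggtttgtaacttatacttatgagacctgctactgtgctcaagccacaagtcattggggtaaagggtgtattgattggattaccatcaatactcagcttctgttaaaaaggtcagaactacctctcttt
The window of Gcg, the alpha hormone, held the letters at 139 and 83 bases before the start, and it also held TATAAA 24 bases before the start. Those of the beta-side genes Ins1 and Ucn3 held the E-box letters 84 and 87 bases before the start, and that of Slc2a2 did not hold them. The letters were about as common in either direction. On either strand, CAGATG was in 11.1% of the 1117 windows matched to genes higher in alpha cells, 10.3% of the 1261 matched to genes lower, 9.87% of the 11038 matched to all genes tested and 14.5% of all 27025 windows. TATAAA was in 7.43% of windows of genes higher, 6.74% of genes lower and 6.49% of genes tested, and the homeodomain core TAATTA in 2.6%, 2.85% and 2.34%. A match describes letters in these windows and not a bound site.

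**Figure D3:**
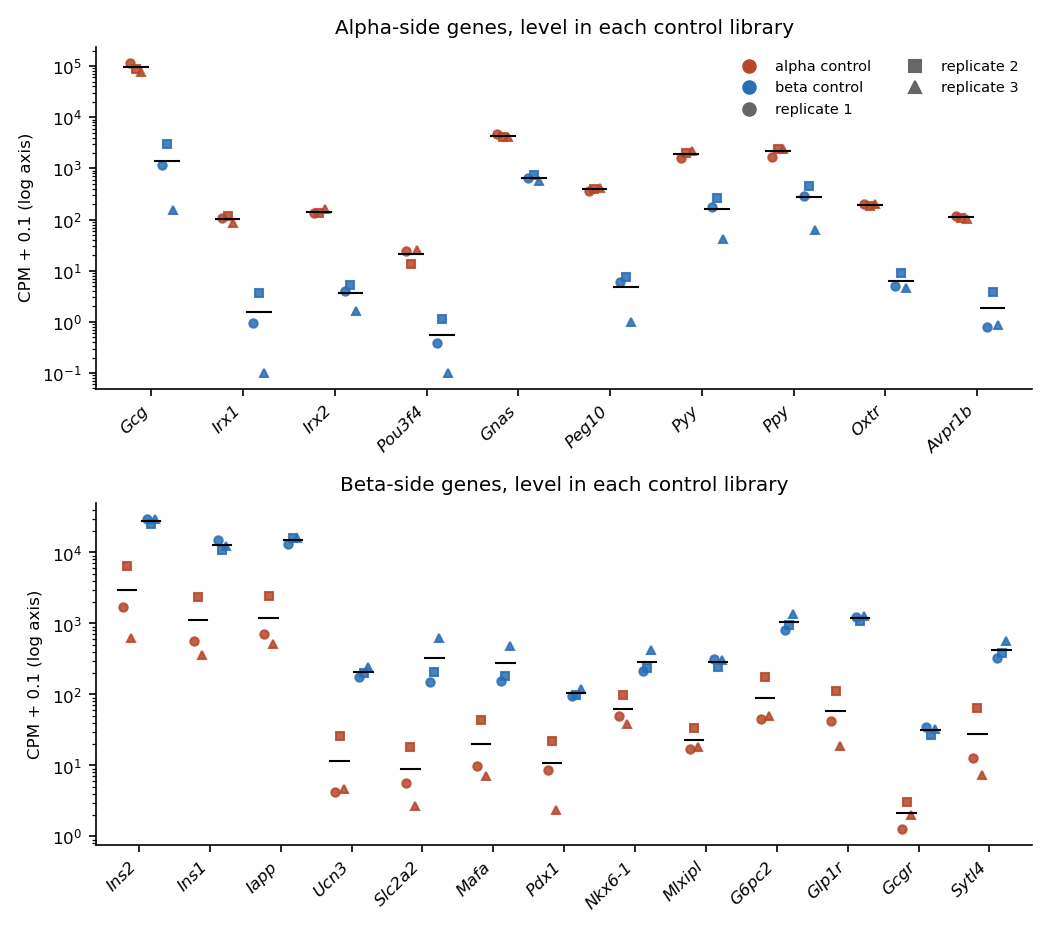
CPM plus 0.1 (log axis) of 10 genes called higher in alpha cells (top) and 13 called lower (bottom) in each control library, with alpha libraries in red at the left of each pair, beta libraries in blue at the right, and lines at the group means. In the bottom panel alpha control 2 (square) is the highest alpha library for every gene, from 2.94 CPM for Gcgr to 6502 CPM for Ins2.

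Both peptide hormones of the polypeptide cell list were higher in alpha cells. Peptide YY (Pyy) was at 1574, 1959.9 and 2181 CPM in alpha and 179, 269.5 and 41.5 CPM in beta libraries (log2 fold change 3.54 ± 0.54 (SE), adjusted p = 0.000112) and pancreatic polypeptide (Ppy) at 1694, 2409.9 and 2352 CPM in alpha and 287, 463 and 62.4 CPM in beta libraries (log2 fold change 2.99 ± 0.51 (SE), adjusted p = 0.000300). These genes lie 5.4 kb apart on chromosome 11. No alpha library overlapped a beta library for either, as for 40.4% of all genes tested. The third polypeptide-cell gene called higher was Arg1 (arginase, 3.04). Of 6 genes of the polypeptide and ghrelin cell list tested, 3 were higher, 1 was lower and 2 did not pass. Over all genes, 9.57% were called higher and 10.1% lower. The polypeptide and ghrelin cell list, both hormones included, summed to 3309, 4416 and 4572 CPM in alpha and 489.9, 763 and 125 CPM in beta libraries, and whether polypeptide cells took part in other differences was not tested. Ghrelin (Ghrl) was under 2 CPM in all 6 libraries. Somatostatin (Sst), the delta cell hormone, was at 15.7, 74.1 and 6.84 CPM in alpha and 68.8, 55.7 and 0 CPM in beta libraries (log2 fold change -0.37 ± 0.93 (SE), adjusted p = 0.829), so that its spread within each group was wider than the difference. Hhex, the factor that defines delta cells, was at 0 in the alpha libraries and at 0.71 CPM or less in beta libraries. Of 9 genes of the delta list tested, 3 were higher, 1 was lower and 5 did not pass, with a median of -0.37. Among the higher was Rbp4, a retinol carrier, at 94.5, 87.4 and 72.8 CPM in alpha and 5.70, 10.2 and 2.59 CPM in beta libraries (log2 fold change 3.76 ± 0.36 (SE), adjusted p = 9.06e-07).

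The genes with the largest changes were mostly outside the hormone and factor lists. By rule these are the 12 protein-coding genes in each direction with at least 5 CPM in the higher group and no overlap between groups. Those higher in alpha cells included Tubb1, Chst15, Slc25a33, Igsf21, Astn2, Ctxn2, Id1, Adrb1, Stac2, Samd5 and Prom2, with fitted log2 fold changes of 6.40 to 7.24. None of them lost the call when a library was left out. For 9 of the 12 the beta libraries together held only 1 to 3 counts, so the fitted value depends on the prior count. Tubb1, a beta-tubulin best known from platelets, had 212 counts over the 3 alpha libraries and 1 over the 3 beta libraries, a ratio per effective library size of 198 (95% counting interval 35.1 to 7853). Chst15, which sulfates chondroitin chains, had 470 counts over the 3 alpha libraries and 3 over the 3 beta libraries, a ratio per effective library size of 146 (95% counting interval 49.7 to 712). Among those with more counts, Samd5 was at 61.6, 38.1 and 56.7 CPM in alpha and 0.285, 1.05 and 0.304 CPM in beta libraries (log2 fold change 6.46 ± 0.47 (SE), adjusted p = 5.81e-08). Igsf21, a synaptic adhesion protein in neurons, was at 29.4, 27.97 and 27.6 CPM in alpha and 0.142, 0.585 and 0 CPM in beta libraries (log2 fold change 6.66 ± 0.84 (SE), adjusted p = 1.48e-05).

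Lower in alpha cells by the same rule were Slc2a2, Th, Cnr1, Kcnj12, Mcoln3, Loxl2, Ikzf3, Cped1, Plppr4, Cd44, Kcng3 and Olfm4, with log2 fold changes of -4.42 to -5.68. Tyrosine hydroxylase (Th), the first enzyme of catecholamine synthesis, was at 0, 0.803 and 0.427 CPM in alpha and 22.9, 21.8 and 21.8 CPM in beta libraries (log2 fold change -5.68 ± 0.57 (SE), adjusted p = 1.41e-06). The cannabinoid receptor Cnr1 was at 0.581, 0.669 and 0.107 CPM in alpha and 20.5, 18.4 and 21.9 CPM in beta libraries (log2 fold change -5.51 ± 0.57 (SE), adjusted p = 1.66e-06). Both were close to even across the beta libraries and near 0 in the alpha libraries. Cd44, a hyaluronan receptor, was at 2.03, 6.29 and 1.28 CPM in alpha and 59.97, 78.4 and 73.9 CPM in beta libraries (log2 fold change -4.48 ± 0.45 (SE), adjusted p = 1.53e-06), and alpha control 2 again held its highest alpha value. Mcoln3, a cation channel of endosomes and lysosomes, and the zinc finger factor Ikzf3 were lower at -5.06 and -4.84.

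**Figure D4:**
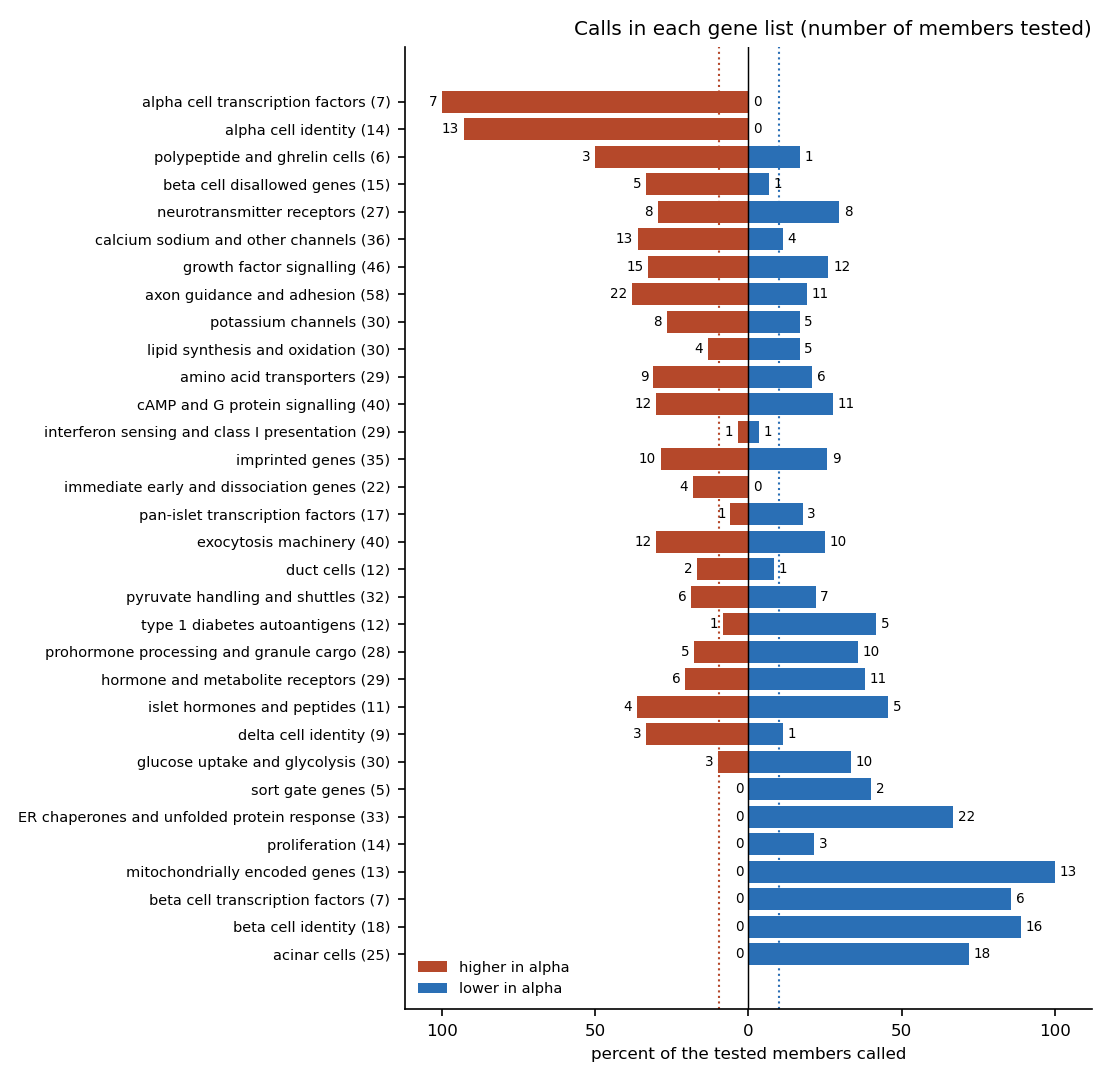
Percent of the tested members of each gene list called higher (red, to the left) or lower (blue, to the right) in control alpha than in control beta cells, ordered by the median log2 fold change of the list, with the number of genes called at the end of each bar and the number tested in brackets. Dotted lines mark the 9.57% and 10.1% called over all genes, and the acinar bar (18 of 25) rests on beta control 1.

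Among genes of glucose uptake and glycolysis, more were called lower than higher in alpha cells. Of 30 genes tested, 3 were higher, near the 9.57% over all genes, and 10 were lower, beside 10.1%, with a median of -0.47. Hexokinase 1 (Hk1), a high-affinity hexokinase that beta cells repress, was at 26.2, 23.95 and 19.02 CPM in alpha and 0.570, 0.820 and 0 CPM in beta libraries (log2 fold change 5.52 ± 0.48 (SE), adjusted p = 3.36e-07). The transporter GLUT3 (Slc2a3) was at 31.7, 32.7 and 35.9 CPM in alpha and 0.997, 1.29 and 0 CPM in beta libraries (log2 fold change 5.36 ± 0.43 (SE), adjusted p = 1.58e-07). Neither reached 2 CPM in any beta library. In the other direction, G6pc2, the islet glucose-6-phosphatase subunit, was at 45.5, 176 and 49.8 CPM in alpha and 822, 960.3 and 1365 CPM in beta libraries (log2 fold change -3.54 ± 0.87 (SE), adjusted p = 0.00669). Aldoa, Slc2a1 and Pgk1 were lower by smaller amounts (-1.18, -1.15 and -1.02). Slc2a1 lost its call without any library other than alpha control 2, and Pgk1 without alpha control 1, alpha control 3 or beta control 2. Fits without a library called 5 to 11 of the 30 lower, with 5 without alpha control 1, alpha control 3 or beta control 2.

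Among genes of pyruvate handling and shuttles, 6 of 32 were higher and 7 lower, beside 9.57% and 10.1% over all genes. Pdk4, a kinase that shuts pyruvate dehydrogenase and so spares glucose, was at 205, 151 and 137 CPM in alpha and 2.56, 4.45 and 0.152 CPM in beta libraries (log2 fold change 6.04 ± 0.66 (SE), adjusted p = 3.39e-06). Fbp1, a gluconeogenic phosphatase, was at 109, 78.6 and 104 CPM in alpha and 2.71, 4.33 and 0.152 CPM in beta libraries (log2 fold change 5.28 ± 0.50 (SE), adjusted p = 7.24e-07). No beta library reached 5 CPM of either. Glutamate dehydrogenase (Glud1) was higher too (0.98), while glutamine synthetase (Glul) was lower (-1.57). Pyruvate carboxylase (Pcx), which feeds pyruvate into the citric acid cycle in beta cells, was at 19.9, 37.1 and 29.3 CPM in alpha and 145, 119 and 123 CPM in beta libraries (log2 fold change -2.16 ± 0.34 (SE), adjusted p = 0.000141). Mpc1, Mdh1 and Idh2 were lower as well (-1.06, -0.97 and -0.94), Mpc1 not without alpha control 1 or beta control 3.

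Some genes are called disallowed because beta cells keep them low. Of 15 tested, 5 were higher and 1 lower (0 lower in each fit without a library, except that without alpha control 2), with a median of 1.08 beside 0.04 over all genes. Besides Hk1, ornithine aminotransferase (Oat) was at 39.5, 28.8 and 52.05 CPM in alpha and 0.997, 2.81 and 3.19 CPM in beta libraries (log2 fold change 4.09 ± 0.41 (SE), adjusted p = 1.34e-06) and Igfbp4 at 13.4, 8.83 and 6.63 CPM in alpha and 0.142, 0.585 and 0 CPM in beta libraries (log2 fold change 5.11 ± 0.80 (SE), adjusted p = 0.000218). Lactate dehydrogenase A (Ldha), the best known of them, was low in both types, at 0.145, 5.75 and 3.74 CPM in alpha and 1.42, 5.74 and 4.41 CPM in beta libraries, and did not pass the test.

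Potassium channels were split between the types, while the K-ATP channel itself did not pass the test. Of 30 genes tested, 8 were higher (5 without alpha control 1, beta control 1 or beta control 3) and 5 lower. The shares over all genes were 9.57% and 10.1%. Kcnj3 (GIRK1), opened by inhibitory G protein-coupled receptors, was at 37.1, 28.9 and 37.1 CPM in alpha and 0.285, 1.05 and 0.152 CPM in beta libraries (log2 fold change 5.98 ± 0.48 (SE), adjusted p = 1.58e-07). The leak channel Kcnk3 (TASK-1) was at 122, 114 and 143 CPM in alpha and 3.13, 3.63 and 1.52 CPM in beta libraries (log2 fold change 5.49 ± 0.32 (SE), adjusted p = 5.75e-09). Both were close to absent from beta libraries. On the beta side, Kcng3, a silent subunit that joins Kv2 channels, was at 0.727, 1.87 and 0 CPM in alpha and 22.2, 15.2 and 18.9 CPM in beta libraries (log2 fold change -4.47 ± 0.72 (SE), adjusted p = 0.000197), and Kcnip1 and Kcnmb2 were lower in alpha cells as well (-2.65 and -2.27). Kcnj11, the pore of the K-ATP channel, was at 88.9, 107 and 102 CPM in alpha and 104, 84.2 and 68.8 CPM in beta libraries (0.21, 95% interval -0.28 to 0.71), and its partner Abcc8 (SUR1) had an interval of -0.47 to 0.69.

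Among calcium, sodium and other channels, 13 of 36 were higher and 4 lower, beside 9.57% and 10.1% over all genes, with a median of 0.52. The counts were 6 higher and 1 lower without beta control 3, 8 and 1 without alpha control 3, and 8 higher without alpha control 1. Cacna1e, the R-type calcium channel, was at 7.70, 3.88 and 10.9 CPM in alpha and 0, 0.468 and 0.152 CPM in beta libraries (log2 fold change 5.00 ± 0.84 (SE), adjusted p = 0.000276). Cacng4, an auxiliary subunit of calcium channels and AMPA receptors, was at 17.1, 18.5 and 20.1 CPM in alpha and 0.570, 1.76 and 1.52 CPM in beta libraries (log2 fold change 3.83 ± 0.46 (SE), adjusted p = 1.03e-05). The sodium channel genes Scn3a and Scn3b were both higher (1.35 and 2.48). Trpm5, a calcium-activated cation channel, had the largest fall of the list at 5.38, 14.2 and 1.82 CPM in alpha and 70.8, 67.7 and 67.9 CPM in beta libraries (log2 fold change -3.28 ± 0.48 (SE), adjusted p = 6.36e-05). The L-type channel genes Cacna1c and Cacna1d, through which calcium enters in both cell types, did not pass the test (95% intervals -0.54 to 0.45 and -0.50 to 0.10).

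Receptors for hormones and nutrients were called in both directions. Of 29 tested, 6 were higher and 11 lower in alpha cells, beside 9.57% and 10.1% over all genes. The vasopressin receptor Avpr1b was at 119.7, 109 and 104 CPM in alpha and 0.712, 3.75 and 0.761 CPM in beta libraries (log2 fold change 5.91 ± 0.61 (SE), adjusted p = 1.86e-06). The oxytocin receptor Oxtr was at 199, 184 and 198 CPM in alpha and 4.84, 9.02 and 4.56 CPM in beta libraries (log2 fold change 4.96 ± 0.29 (SE), adjusted p = 5.75e-09), and somatostatin receptor 2 (Sstr2), through which delta cells inhibit glucagon release, was at 28.3, 21.3 and 25.2 CPM in alpha and 0.570, 1.05 and 0.152 CPM in beta libraries (log2 fold change 5.30 ± 0.39 (SE), adjusted p = 6.48e-08). These 3 were even across the alpha libraries and under 10 CPM in every beta library. The fatty acid receptor Ffar4 and the lipid receptor Gpr119 were higher as well (3.04 and 2.31). The GLP-1 receptor (Glp1r), target of incretin drugs, was at 41.7, 113 and 18.7 CPM in alpha and 1216, 1076 and 1266 CPM in beta libraries (log2 fold change -4.36 ± 0.57 (SE), adjusted p = 2.06e-05). The glucagon receptor (Gcgr) was at 1.16, 2.94 and 1.92 CPM in alpha and 34.3, 26.7 and 33.01 CPM in beta libraries (log2 fold change -3.95 ± 0.40 (SE), adjusted p = 1.61e-06), so the receptor for the alpha hormone was higher on the beta side. The prolactin receptor (Prlr) was at 27.5, 170.3 and 18.9 CPM in alpha and 298, 621 and 1139 CPM in beta libraries (log2 fold change -3.25 ± 0.95 (SE), adjusted p = 0.0203), a call that did not hold without alpha control 1, without alpha control 3 or without beta control 3. The nuclear receptor Pparg was also lower (-3.49).

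Transmitter receptors were called 8 times in each direction among 27 tested, beside 9.57% higher and 10.1% lower over all genes, with a median of 0.62. The beta-1 adrenergic receptor (Adrb1) had 317 counts over the 3 alpha libraries and 3 over the 3 beta libraries, a ratio per effective library size of 98.6 (95% counting interval 33.4 to 481). Gria2, an AMPA-type glutamate receptor subunit, was at 133, 111 and 153 CPM in alpha and 9.40, 10.8 and 9.58 CPM in beta libraries (log2 fold change 3.73 ± 0.26 (SE), adjusted p = 3.44e-08), and the kainate receptor Grik2 and the alpha-1 receptor Adra1a were higher too (4.76 and 4.75). The beta-side receptors included the muscarinic receptor Chrm3, through which acetylcholine promotes insulin release, at 6.97, 11.51 and 4.49 CPM in alpha and 52.3, 49.99 and 59.5 CPM in beta libraries (log2 fold change -2.82 ± 0.29 (SE), adjusted p = 1.67e-06). Adenosine receptors took opposite sides, with Adora2a higher (2.72) and Adora1 lower (-3.48) in alpha cells. The purinergic receptor P2ry1, the NMDA receptor subunit Grin1 and the GABA-B subunit Gabbr2 were lower (-2.89, -2.94 and -2.65).

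Among genes of prohormone processing and granule cargo, 5 of 28 were higher and 10 lower, beside 9.57% and 10.1% over all genes. The higher count was 2 in fits without alpha control 1, alpha control 2, beta control 1 or beta control 3, and 3 without alpha control 3. Pcsk1, the convertase that beta cells use to cut proinsulin, was at 31.1, 159 and 22.1 CPM in alpha and 430.2, 593 and 862 CPM in beta libraries (log2 fold change -3.15 ± 0.74 (SE), adjusted p = 0.00506). Pcsk2, which makes glucagon from proglucagon, was at 3437, 3399 and 2993 CPM in alpha and 1854, 2182 and 2383 CPM in beta libraries (log2 fold change 0.61 ± 0.21 (SE), adjusted p = 0.0421), a small difference whose call was lost in 5 of the 6 fits that left out a library, all but that without beta control 3.  Pcsk1n, an inhibitor of Pcsk1, was at 884, 969.9 and 1105 CPM in alpha and 306, 194 and 187 CPM in beta libraries (log2 fold change 2.11 ± 0.56 (SE), adjusted p = 0.0109), and lost its call without beta control 3. Resp18, a granule protein, was at 883, 757 and 801 CPM in alpha and 271, 319 and 284 CPM in beta libraries (log2 fold change 1.48 ± 0.22 (SE), adjusted p = 8.65e-05). Ppp1r1a, a phosphatase 1 inhibitor, and Ero1lb, an oxidase for disulfide bonds that is rich in beta cells, were lower at -3.36 and -2.69. Chromogranin A (Chga) and carboxypeptidase E (Cpe), common to all endocrine granules, did not pass the test (95% intervals -0.81 to 0.23 and -0.29 to 0.50).

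In the exocytosis machinery 12 of 40 genes were higher and 10 lower (6 without alpha control 1), beside 9.57% and 10.1% over all genes. The synaptotagmin-like proteins, Rab27 effectors that dock granules, were split by type. Sytl2 was at 120.2, 52.6 and 65.8 CPM in alpha and 1.42, 1.99 and 0.304 CPM in beta libraries (log2 fold change 5.93 ± 0.58 (SE), adjusted p = 1.16e-06), and Sytl4 (granuphilin) at 12.5, 64.2 and 7.16 CPM in alpha and 324, 385 and 563 CPM in beta libraries (log2 fold change -3.93 ± 0.83 (SE), adjusted p = 0.00218). No alpha library overlapped a beta library for either gene, as for 40.4% of all genes tested. The Rab3 genes were split too, with Rab3c higher (3.09) and Rab3a and Rab3d lower (-1.09 and -1.34). The active-zone gene Rims3 was lower (-3.67). Of the core SNARE genes, Stx1a was higher at 20.9, 21.3 and 20.5 CPM in alpha and 6.41, 5.03 and 1.67 CPM in beta libraries (log2 fold change 2.24 ± 0.37 (SE), adjusted p = 0.000214), and Snap25 and Vamp2 did not pass the test (95% intervals -0.93 to 0.06 and -0.99 to 0.17).

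Genes of cAMP and G protein signalling were called 12 times higher and 11 times lower among 40 tested, beside 9.57% and 10.1% over all genes. Gnas, which encodes the stimulatory G protein alpha subunit, was at 4650.3, 4110.1 and 4070.4 CPM in alpha and 655, 735 and 576 CPM in beta libraries (log2 fold change 2.71 ± 0.26 (SE), adjusted p = 1.03e-06), the most abundant of the list in CPM. It is an imprinted locus with overlapping transcripts, and the gene-level count does not separate them. The adenylate cyclases Adcy1 and Adcy5 and the cAMP phosphodiesterase Pde4d were higher (5.87, 3.53 and 2.72), as was the kinase anchor Akap12 (4.48). Other phosphodiesterases took the beta side, with Pde7b, Pde3a and Pde4b at -2.68, -2.66 and -1.89. Rasgrf1, a calcium-responsive exchange factor for Ras, was at 18.2, 45.4 and 3.63 CPM in alpha and 308, 258 and 254 CPM in beta libraries (log2 fold change -3.62 ± 0.66 (SE), adjusted p = 0.000579).

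Amino acid transporters were called higher for 9 and lower for 6 of 29 (3 lower without alpha control 1). The shares over all genes were 9.57% and 10.1%. Slc38a5, a glutamine transporter that is induced in alpha cells when glucagon signalling is blocked, was at 68.6, 60.1 and 87.6 CPM in alpha and 1.28, 2.34 and 0.456 CPM in beta libraries (log2 fold change 5.66 ± 0.60 (SE), adjusted p = 2.55e-06). The cationic amino acid transporter Slc7a2, which carries arginine, was at 1071, 895 and 1089 CPM in alpha and 241, 261 and 370.0 CPM in beta libraries (log2 fold change 1.81 ± 0.36 (SE), adjusted p = 0.00135). Slc6a17 and Slc7a8 were higher by less (1.34 and 1.18). On the beta side were Slc7a5 (LAT1), at 67.4, 123 and 91.7 CPM in alpha and 287, 225 and 219 CPM in beta libraries (log2 fold change -1.37 ± 0.29 (SE), adjusted p = 0.00205), and Slc7a11, the cystine importer (-2.39), which was not called in fits without alpha control 1, without alpha control 3 or without beta control 3. Slc1a4 and Slc36a1 were lower at -1.10 and -1.12, Slc1a4 not without alpha control 1.

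The list of endoplasmic reticulum (ER) chaperones and unfolded protein response genes was lower in alpha cells for most members. Of 33 tested, 22 were lower at an adjusted p under 0.05, with a median of -1.09 beside 0.04 over all genes. DESeq2 called 23 lower. Of the 11 members without a call, Ern1 and Creb3l2 had small positive fold changes (0.07 and 0.09) and Atf3 a larger one (1.30, adjusted p = 0.234). Edem1, which sends misfolded glycoproteins to degradation, was at 34.6, 57.4 and 38.5 CPM in alpha and 234, 201 and 291 CPM in beta libraries (log2 fold change -2.47 ± 0.24 (SE), adjusted p = 1.11e-06). The stress factor Atf5 was at 15.3, 47.8 and 6.52 CPM in alpha and 223, 138 and 163 CPM in beta libraries (log2 fold change -2.92 ± 0.58 (SE), adjusted p = 0.00127). The co-chaperone Dnajb9 was at 88.2, 111 and 61.6 CPM in alpha and 210.4, 355 and 764 CPM in beta libraries (log2 fold change -2.35 ± 0.47 (SE), adjusted p = 0.00134), and its 3 beta values were the more uneven. Chac1, a stress-induced glutathione-degrading enzyme, was lower at -2.05. Fits without a library called 17 to 23 of the 33 lower in the control comparison, with 17 without alpha control 1, alpha control 3 or beta control 3. In the IFNγ libraries 17 of the 33 were lower in alpha than in beta cells.

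All 13 protein-coding genes of the mitochondrial genome were lower in alpha cells, with a median of -2.04. These encode subunits of the respiratory chain and ATP synthase. The cytochrome oxidase subunit mt-Co1, the most abundant of them in CPM, was at 5016, 3691 and 3325 CPM in alpha and 9712, 11194 and 18240.1 CPM in beta libraries (log2 fold change -1.70 ± 0.36 (SE), adjusted p = 0.00211). The largest fold was that of mt-Co2, at 27.03, 74.1 and 55.04 CPM in alpha and 451, 460.5 and 269.9 CPM in beta libraries (log2 fold change -2.92 ± 0.52 (SE), adjusted p = 0.000477). Mitochondrial transcripts as a whole took 2.90, 2.34 and 1.80% of counts in alpha and 5.71, 7.33 and 9.46% in beta libraries, with no overlap. Fits without a library called 11 to 13 of the 13 lower. In the IFNγ libraries, where they took 5.72, 2.20 and 5.53% in alpha and 3.94, 6.37 and 4.10% in beta libraries, only mt-Co2 was lower in alpha cells and the median was -0.11. The difference between the contrasts had an unadjusted p under 0.05 for 11 of the 13, and the smallest adjusted p among them was 0.369 (edgeR). Beta control 3 had the lowest ribosomal RNA share and the highest mitochondrial share of the beta libraries, while alpha control 3 had the lowest of both among the alpha libraries. The part of the ribosomal RNA share in the result was not tested. Mitochondrial genes have copies in the nuclear genome with which they can share reads, so single members are less certain than the list.

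**Figure D5:**
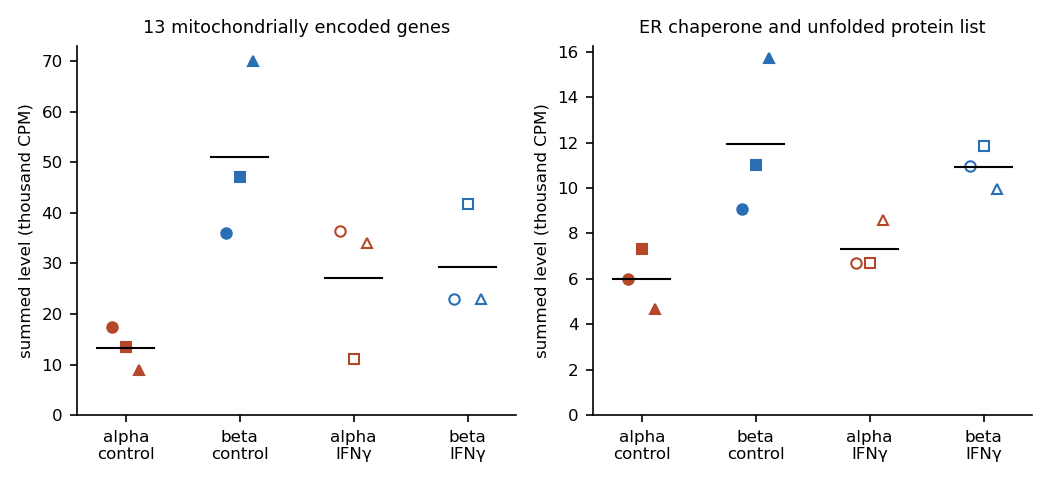
Summed level (CPM, in units of 1000) of the 13 mitochondrially encoded genes (left) and of the 33 genes of the ER chaperone and unfolded protein list (right) in alpha and beta libraries, control (filled) and IFNγ (open), with circles, squares and triangles for replicates 1, 2 and 3 and lines at the means. The alpha control libraries lie below the beta control libraries in both panels, and the IFNγ libraries overlap for the mitochondrial genes and not for the ER list.

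Adhesion and guidance genes, many of them known from the wiring of neurons, were called 22 times higher and 11 times lower among 58. The shares over all genes were 9.57% and 10.1%. Sema3e, a secreted semaphorin, was at 52.3, 38.5 and 29.7 CPM in alpha and 4.13, 6.56 and 1.98 CPM in beta libraries (log2 fold change 3.22 ± 0.32 (SE), adjusted p = 1.27e-06), and the netrin Ntn4 at 33.6, 25.8 and 28.5 CPM in alpha and 3.13, 2.69 and 1.06 CPM in beta libraries (log2 fold change 3.65 ± 0.69 (SE), adjusted p = 0.000808). Dscam, Ncam2 and Nrxn2 were higher as well (4.36, 3.93 and 3.60). Cadherin 7 (Cdh7) was close to absent from alpha libraries at 0.581, 1.74 and 1.07 CPM in alpha and 19.8, 20.1 and 31.8 CPM in beta libraries (log2 fold change -4.38 ± 0.71 (SE), adjusted p = 0.000193). Contactin 1 (Cntn1) was at 11.6, 28.6 and 4.38 CPM in alpha and 111, 144 and 144 CPM in beta libraries (log2 fold change -3.17 ± 0.53 (SE), adjusted p = 0.000266), and Nectin3 and Sdk2 were lower at -1.95 and -1.75.

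In growth factor signalling 15 of 46 genes were higher and 12 lower, beside 9.57% and 10.1% over all genes. Among the list's higher genes were targets and effectors of BMP signalling. Id1 was at 14.97, 24.6 and 13.04 CPM in alpha and 0.427, 0.117 and 0 CPM in beta libraries (log2 fold change 6.49 ± 1.04 (SE), adjusted p = 0.000184) and Id3 at 27.03, 24.9 and 36.98 CPM in alpha and 0.712, 1.64 and 0 CPM in beta libraries (log2 fold change 5.13 ± 0.80 (SE), adjusted p = 0.000141), and the receptor-regulated Smad9 was higher too (4.30). Sfrp5, a secreted Wnt antagonist, was at 187, 171 and 211 CPM in alpha and 2.71, 4.80 and 0.152 CPM in beta libraries (log2 fold change 6.15 ± 0.69 (SE), adjusted p = 4.20e-06). The Wnt co-receptor Lrp5 and the receptor Fzd7 were on the beta side (-3.0 and -3.28). Egfr was at 3.49, 14.6 and 2.03 CPM in alpha and 51.3, 44.02 and 42.9 CPM in beta libraries (log2 fold change -2.79 ± 0.55 (SE), adjusted p = 0.00119), and the BMP receptor Bmpr1b and Igfbp5 were lower at -3.02 and -3.41.

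Imprinted genes, expressed from the copy of only the mother or the father, were called 10 times higher and 9 times lower among 35. The shares over all genes were 9.57% and 10.1%. Peg10, a retrotransposon-derived gene, was at 369, 398 and 413 CPM in alpha and 5.84, 7.49 and 0.913 CPM in beta libraries (log2 fold change 6.34 ± 0.53 (SE), adjusted p = 1.93e-07), and Sgce at 57.5, 39.6 and 48.1 CPM in alpha and 0.855, 1.17 and 0.304 CPM in beta libraries (log2 fold change 5.89 ± 0.30 (SE), adjusted p = 1.46e-09). They lie head to head on opposite strands of chromosome 6 with 98 bases between them, and no beta library reached 10 CPM of either. Asb4, 622.9 kb from Peg10, was higher as well (2.37), as was Grb10, an adaptor that restrains insulin signalling (1.66). Dlk1 and Igf2 were lower in alpha cells (-3.21 and -2.60) at under 12 CPM in every library.

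Genes for sensing interferon and presenting antigen bear on how the cells met IFNγ in the rest of the series, and most did not pass the test in control cells. Of 29 tested, 1 was higher and 1 lower, beside 9.57% and 10.1% over all genes, and the median was 0.07. The receptor chain Ifngr1 was at 7.56, 8.70 and 7.69 CPM in alpha and 10.4, 13.6 and 12.9 CPM in beta libraries (log2 fold change -0.62, 95% interval -1.08 to -0.17, adjusted p = 0.0655). The alpha values of Ifngr1 lay below its beta values, and 40.4% of all genes tested had no overlap between groups. It was called lower by DESeq2 (adjusted p = 0.0486) and with a GC offset in edgeR (adjusted p = 0.0266). No other fit called it, among them limma-voom, the date term, the replicate block and each fit without a library. The list had 3 lower with the date as a term and 4 with the GC offset, and 2 higher without beta control 3. Ifngr2 was at 8.72, 7.63 and 3.85 CPM in alpha and 12.3, 8.55 and 7.91 CPM in beta libraries, with an interval of -1.23 to 0.19. The calls were Socs3, a feedback inhibitor of cytokine receptors, at 117, 74.1 and 93.1 CPM in alpha and 42.9, 22.4 and 26.6 CPM in beta libraries (log2 fold change 1.63 ± 0.36 (SE), adjusted p = 0.00331), and Jak1, a kinase bound to the receptor, at 155, 154 and 138 CPM in alpha and 234, 239 and 282 CPM in beta libraries (log2 fold change -0.76 ± 0.18 (SE), adjusted p = 0.00442). Intervals for Irf1, Cd274 (PD-L1) and the class I gene H2-D1 were -0.43 to 0.41, -0.95 to 0.15 and -0.42 to 0.63.

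Genes whose proteins are autoantigens in type 1 diabetes were called lower for 5 of 12 and higher for 1. The shares over all genes were 10.1% and 9.57%. Besides Ins1, Ins2, Iapp and G6pc2, the glutamate decarboxylase Gad1 was lower at 3.34, 11.9 and 3.21 CPM in alpha and 77.5, 58.8 and 111 CPM in beta libraries (log2 fold change -3.75 ± 0.64 (SE), adjusted p = 0.000334). Tspan7 was the member higher in alpha cells (0.97). The zinc transporter Slc30a8 (ZnT8) was at 525, 492 and 531 CPM in alpha and 292, 391 and 597 CPM in beta libraries, and the granule phosphatase Ptprn (IA-2) at 752, 821 and 753 CPM in alpha and 862, 810.3 and 700.1 CPM in beta libraries, with 95% intervals of -0.52 to 1.07 and -0.56 to 0.50.

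Of the surface proteins used in the sort, the transferrin receptor (Tfrc, CD71) was at 65.7, 76.7 and 65.7 CPM in alpha and 84.9, 116 and 161 CPM in beta libraries (log2 fold change -0.80 ± 0.30 (SE), adjusted p = 0.0729). Its alpha values lay below its beta values, and 40.4% of all genes tested had no overlap between groups. It was called lower by DESeq2, in the fit of the 6 libraries alone, with a GC offset and without beta control 1. It was also called with no low-count filter, where edgeR gave some far smaller adjusted p-values (Irx1, 1.37e-68 against 1.11e-06). Tfrc was not called by limma-voom, with the date as a term or without any other single library. The sort panel used CD71, CD24 and CD49f, so the differences of their genes are given as a description. Cd24a, also a gate gene, was at 1.02, 1.61 and 0.641 CPM in alpha and 7.55, 7.49 and 3.65 CPM in beta libraries (log2 fold change -2.54 ± 0.44 (SE), adjusted p = 0.000346), low in both, and the integrin Itga6 (CD49f) at 30.95, 41.2 and 25.3 CPM in alpha and 122, 131 and 118 CPM in beta libraries (log2 fold change -1.93 ± 0.21 (SE), adjusted p = 2.97e-06).

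Lipid genes were called higher for 4 and lower for 5 of 30 (3 lower without alpha control 1, alpha control 3 or beta control 2), among them Acly and Elovl5 on the beta side (-1.27 and -2.04). Over all genes, beside this list and those that follow, 9.57% were called higher and 10.1% lower. The median of the lipid list was 0.10, against 0.04 over all genes. Of 22 immediate early and dissociation genes, 4 were higher in alpha cells, Klf4 (2.29), Socs3, Gadd45b (1.63) and Klf6 (0.86), and 0 were lower. The sum of that list was 787, 908 and 1145 CPM in alpha and 613, 688 and 1725 CPM in beta libraries. Of 14 proliferation genes, 3 were lower, led by Top2a at 0.291, 4.28 and 0.641 CPM in alpha and 15.4, 56.5 and 5.02 CPM in beta libraries (log2 fold change -3.90 ± 1.05 (SE), adjusted p = 0.0123). Its beta values were spread over more than 10-fold with beta control 2 the highest, and all 3 calls of the list were lost without that library, as they were without alpha control 3. The lower count was 1 without alpha control 1, and 5 without alpha control 2 or beta control 3.

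Markers of cells outside the endocrine lineage moved with some of these results. The acinar list had 18 of 25 members lower in alpha cells and a median of -4.69, which rested on beta control 1. The count also moved with the method, with 19 lower by DESeq2, 7 with the replicate number as a block, 3 in the 6 libraries alone and 0 by limma-voom. It was 11, 2 and 1 without alpha controls 1, 2 and 3 in turn, and 21 and 23 without beta controls 2 and 3. The lipase Pnlip was at 4.07, 0.535 and 1.28 CPM in alpha and 269.6, 13.8 and 0.152 CPM in beta libraries (log2 fold change -5.62 ± 1.58 (SE), adjusted p = 0.0166), and carboxypeptidase A1 (Cpa1) at 5.23, 0.669 and 0.641 CPM in alpha and 256, 7.49 and 0 CPM in beta libraries (log2 fold change -5.39 ± 1.54 (SE), adjusted p = 0.0181). For both genes the alpha and beta values overlapped, and all 18 calls were lost without beta control 1. In all, 26 of the 1755 lower calls had a level in beta control 1 above 5 times that of either other beta library (a factor chosen after the values were seen). Of these, 18 were in the acinar list, and all 26 lost the call without that library. Of duct genes, Spp1 (osteopontin) was higher at 1084, 617 and 777 CPM in alpha and 199, 228 and 144 CPM in beta libraries (log2 fold change 2.12 ± 0.44 (SE), adjusted p = 0.00184) and Muc1 too (2.19), Krt7 was lower (-1.0), and the duct factor Sox9 and keratin Krt19 did not pass the test. Endothelial markers summed to at most 8.76 CPM and immune markers to at most 7.09 CPM in any library. Of 3 immune genes tested, 1 was called higher in alpha cells. That count was 1 without alpha control 1 and 0 without any other single library. Col1a2 was the call among mesenchymal genes, at 6.25, 7.76 and 10.8 CPM in alpha and 0.712, 0.234 and 0.152 CPM in beta libraries (log2 fold change 4.46 ± 0.76 (SE), adjusted p = 0.000334), beside Col1a1 and Pdgfra, which were too low to be tested.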

How the data were processed

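RNA of 18 sorted islet cell libraries was measured, and 6 are compared here. The authors reverse-transcribed the RNA with random primers (Ovation SoLo kit), depleted ribosomal sequences after library construction, mapped reads with STAR 2.5.2b (mouse build GRCm38, GENCODE annotation) and quantified genes with RSEM, as their methods and the submitters' processing notes list. The deposited expected counts, estimated reads per gene and not whole, were rounded here. The deposited TPM values, scaled by the authors' pipeline to transcript length and library, were used only to compare levels between genes. FPKM and transcript length columns were not used.

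Samples were grouped by their labels. Expected counts were fitted with edgeR 4.0.16 in R 4.3.3 (filterByExpr with a minimum count of 10, TMM, glmQLFit, 1 mean for each group over all 18 libraries, glmQLFTest), with Benjamini-Hochberg adjustment over 17338 genes and a threshold of 0.05. The SE was the log2 fold change divided by the root of F. The 95% intervals of fold changes used this SE with a normal quantile, which makes them narrower than the F-test would. They are not adjusted for the number of genes tested, so an interval can leave out no change where the gene was not called. Counting intervals of ratios (95%) cover counting error only. Totals of 6584279 to 8865201 counts limit the precision of low genes. Python 3.11.15 with pandas 2.3.3, numpy 2.4.6 and matplotlib 3.10.9 made the summaries and plots. Gene classes, GC content and positions came from GENCODE M21, which matched 55227 of 55487 genes, and promoter windows from RefSeq (GRCm38.p6). The fit was tested on simulated data with the same spread for all genes and no batch or traces of other cells. That setting is simpler than these data, so the test does not measure the error rate here.

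The members and gene lists were chosen with earlier results of these data known. Named genes were a fixed list, the 12 largest changes in each direction by the rule given with them, and up to 5 called members in each direction of each list with at least 5 CPM. Members without a call, and mt-Co1, were picked after their values were seen, and some members that the rule names are not reported here. Alternatives were DESeq2 1.42.0, limma-voom (limma 3.58.1), other normalizations, filters and thresholds, a GC offset, a date term, a replicate block and each library left out. The other groups entered the fit for the spread only, apart from the IFNγ comparison.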

Additional observations from a re-analysis of the deposited data

How the results depend on the processing

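The 1659 genes higher and 1755 genes lower in control alpha cells became 981 and 1040 at an adjusted p under 0.01, and 619 and 465 against a null of 2-fold. Leaving out a replicate in turn gave 1116 to 1522 higher and 1106 to 1569 lower, with the fewest lower without alpha control 3 (1106). By DESeq2 the counts were 1813 higher with 2093 lower, by limma-voom 1482 with 1681, and with a GC offset 1870 with 2409. The date as a term gave 1403 higher with 1671 lower. The other settings (scaling, filters, the libraries in the fit) also stayed within 1.5 times of the first counts. With the replicate number as a block there were 1427 higher and 1591 lower. Same-numbered libraries correlated in their deviations by 0.00916, 0.11592 and 0.08001. Alpha controls 2 and 3 correlated best with the beta control of their own number, but alpha control 1 with beta control 2 (0.03399). The numbers were thus not shown to pair all the libraries. The study included batch in its DESeq2 design, but the labels name no batch, and the main fit here had neither a batch nor a pair term. Of 212 named genes, 177 kept their call in every alternative that was fitted gene by gene at the same threshold and gave them a value. The other 35 changed it in at least 1, and none was called in both directions. Signs could change without a call, as for Sst, at -0.37 in the main fit and 1.31 by limma-voom. Of all 1755 lower calls, 4 had a positive log2 fold change without beta control 1. Some of the 212 had no value with a minimum count of 50 or in the fit of 4 libraries of 2 dates. Tfrc was called with the replicate block (adjusted p = 0.0399) and in that 2-date fit (0.0281). The 2-date fit gave some far smaller adjusted p-values than the main fit (Irx1, edgeR, 1.00e-49 against 1.11e-06). The 3 libraries a group and the depth limit what can be said of genes near 1 CPM. The traces of beta RNA in alpha control 2 and of acinar RNA in beta control 1 were left in the counts.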
